A study of Drosophila melanogaster with 22 samples.

Results

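The Cpr genes of Drosophila melanogaster code for cuticle proteins that share the Rebers and Riddiford consensus, a chitin-binding domain, and each symbol carries the cytological band of its gene. Protein-coding genes on chromosome arms 2L, 2R, 3L, 3R and X were taken as members when the symbol was Cpr followed by a band number, which gave 70 of the 13842 protein-coding genes on these arms. Of the 70, 35 lie on 3L, 21 on 2R, 5 on 2L, 5 on 3R and 4 on X. Accessible chromatin had been measured by bulk ATAC-seq, in which a transposase cuts open DNA, in hearts removed from adult flies. The 22 libraries fall into 6 groups. Hearts of the white-eyed strain w1118 were taken at 5 weeks and at 1 week of age (3 libraries each). The other 4 groups are all 1 week old and carry Hand-Gal4, a driver active in the heart tube and in pericardial cells. They are LamC RNAi, against the A-type lamin, and its attp2 control (4 libraries each), and LamB RNAi, against the B-type lamin, and its attp40 control (5 and 3 libraries). The knockdown was thus directed at heart and pericardial cells, and neither RNAi nor driver is given for w1118. The design text counts 3 LamC RNAi and 4 LamB RNAi libraries where the sample titles give 4 and 5, and all titled libraries were used. The labels state neither the sex of the flies nor whether the libraries of 1 group are separate pools of animals. A p-value here therefore covers only library-to-library spread, part of which may be technical.

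Insect cuticle is a layered matrix of chitin fibres and proteins laid down by the epidermis, and by tracheae, foregut and hindgut, which are lined with cuticle too. Cpr proteins bind the chitin and set how stiff or flexible the cuticle becomes. Their genes sit largely in tandem clusters and are switched on in bursts timed by the moulting hormone ecdysone. The adult fly heart is a muscular tube beneath the dorsal abdominal epidermis, and fat body, pericardial nephrocytes, oenocytes and epidermis lie next to it. In a bulk sample, fewer cells with an open site and a site less open in each cell cannot be told apart.

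Each library came as its own list of peaks, and the number of reads behind it is unknown. The lists held 8491 to 12395 peaks, and between 54.0% and 63.2% of all protein-coding genes had a peak within 500 bp of the gene. A gene is called open below when a deposited peak of a library lies in the gene or within 500 bp of it. Strength is given as a rank score. Only the 8491 top peaks of each list, ordered by the deposited −log10 p, were ranked, and the score runs from 1 for the strongest peak of a list down to 0 where the reduced list holds no peak. A score of 0 can therefore hide a weak peak below that rank.

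Most Cpr genes were closed in these hearts. Of the 70, 15 (21.4%) were open in at least 1 library and 3 (4.29%) in all 22, whereas 9318 (67.3%) of all protein-coding genes were open in at least 1 library and 6503 (47.0%) in all 22. The other 55 Cpr genes had no peak within 500 bp in any library. Cpr genes are short, with a median span of 1094 bp over the 70 against 2151 bp over all genes. Up to 2000 bp 8 of 53 Cpr genes were open in at least 1 library, against 3355 of 6515 protein-coding genes (51.5%). Above 2000 bp the counts were 7 of 17 Cpr genes and 5963 of 7327 genes (81.4%). The part of gene length in the low Cpr share was not tested. The share also moved with the window. Within 1000 bp 24 Cpr genes (34.3%) were open in at least 1 library and 5 (7.14%) in all 22, against 70.8% and 51.3% of all genes, and within the gene itself 10 (14.3%) and 1 (1.43%), against 60.3% and 37.1%. These shares are a description, because genes of one cluster share their surroundings and are not independent.

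**Figure D1:**
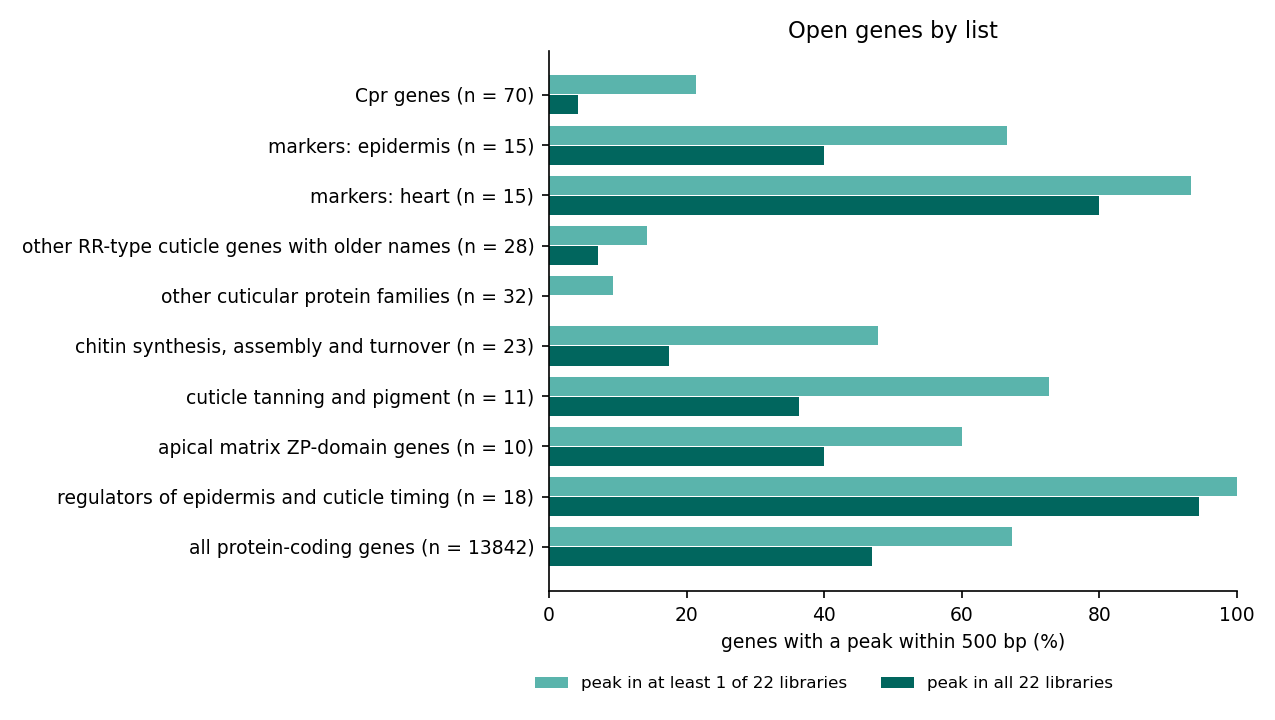
Share of genes (horizontal axis, percent) with a deposited peak within 500 bp, in at least 1 of the 22 libraries (upper, light bar) and in all 22 (lower, dark bar), for the Cpr genes, lists of related genes and all protein-coding genes. The Cpr genes (21.4% and 4.29%) and the other cuticle protein lists have the shortest of the bars drawn, and the regulators of epidermis and cuticle timing and the heart markers the longest. Marker lists of under 10 genes are not drawn, and the lists are not matched for gene span.

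On 2R 8 of 21 Cpr genes were open in at least 1 library, on 3L 6 of 35 and on 3R 1 of 5, and none of the 5 on 2L or the 4 on X, whereas of all protein-coding genes 63.4% to 69.0% were open on each arm. Numbers per arm and per band are small, and differences between them were not tested. Bands with at least 4 Cpr genes held 30 members, of which 4 (13.3%) were open, and the other bands 40 members with 11 open (27.5%). In band 49A 2 of 8 genes were open (Cpr49Aa and Cpr49Ab) and in band 47E 2 of 7 (Cpr47Ea and Cpr47Ee). No gene was open in band 65A (7 genes), 64A (4) or 76B (4), nor in 67F, 72E or 78C (3 each). Cpr62Ba and Cpr62Bb of the 3 genes in band 62B were open, and 1 of 3 in band 65E (Cpr65Ec).

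The 65A cluster lay in the longest stretch without a peak around any Cpr gene. No list had a peak from 6125001 to 6173394 on 3L (dm6), a length of 48.4 kb. That stretch holds 20 protein-coding genes. They are the 7 Cpr65A genes, 10 Lcp65A larval cuticle genes of the same protein family, the adult cuticle gene Acp65Aa, CG13297 and Prdm13, a gene for a zinc-finger protein. Peaks bordered it on both sides, near l(3)mbn and near fmt. On 2R, 12385284 to 12409704 (24.4 kb) was free of peaks and held 5 Cpr49A genes, and on 3L, 4206087 to 4219190 held all 4 Cpr64A genes. Around the 55 closed genes the peak-free stretch measured 4.47 to 48.4 kb (median 16.0 kb), and the nearest peak lay 0.536 to 22.5 kb away (median 3.04 kb). Cpr65Ax1 and Cpr65Ax2, Cpr67Fa1 and Cpr67Fa2, and several Lcp65A genes are near-identical copies. The treatment of reads that match both copies is not stated, so their missing peaks are less certain than those of the single genes.

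**Figure D2:**
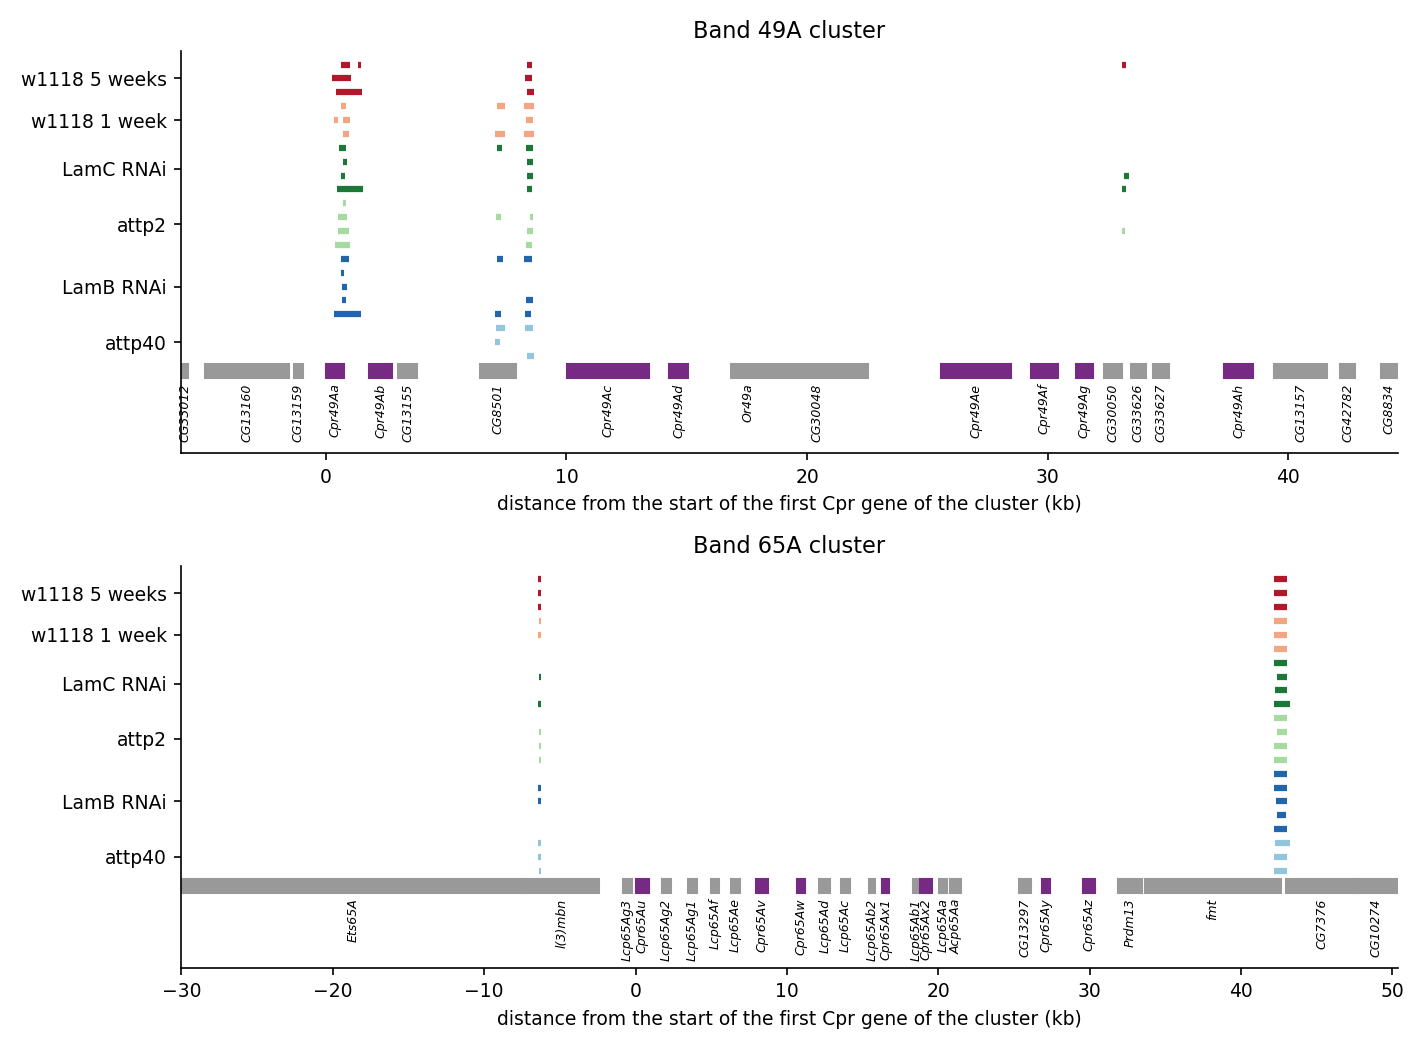
Deposited peaks (coloured bars, 1 row per library, rows ordered by group) over the band 49A and band 65A clusters, with Cpr genes in purple and other protein-coding genes in grey below, against the distance in kb from the start of the first Cpr gene. In 49A the peaks stand at Cpr49Aa, at and just after CG8501 and near CG30050, and in 65A none falls on the cluster.

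The 15 open genes ranged from peaks in every library to peaks in a few. Cpr62Ba, Cpr73D and Cpr97Ea were open in all 22, and 4 genes in 17 to 21 (Cpr47Ea 19, Cpr49Aa 19, Cpr62Bb 18, Cpr51A 17). Cpr66D was open in 14 libraries and Cpr66Cb in 11. The remaining 6 were open in 2 to 4 libraries, namely Cpr49Ab and Cpr57A in 4, Cpr50Ca and Cpr65Ec in 3, and Cpr47Ee and Cpr60D in 2. Strength followed the same order only in part. The strongest peak of Cpr73D had a mean score of 0.853 over the 22 libraries (lowest 0.735, highest 0.938). Cpr62Ba followed at 0.440 (0.273 to 0.596), and no library had a Cpr62Ba score as high as the lowest of Cpr73D. Cpr62Bb shares its peak with Cpr62Ba, averaged 0.360 and was at 0 in 4 libraries in which that peak did not reach its window. Mean scores were 0.272 for Cpr97Ea (0.0767 to 0.625), 0.200 for Cpr47Ea and 0.160 for Cpr66Cb, and the ranges of these 3 overlapped each other and that of Cpr62Ba. Means of Cpr49Aa, Cpr51A, Cpr49Ab and Cpr57A were between 0.0928 and 0.0252. Cpr50Ca and Cpr60D never entered the 8491 strongest peaks of a list. Their peaks ranked between 9612 and 10200 in the deposited lists, and Cpr50Ca was open in 2 LamC RNAi libraries and 1 LamB RNAi library and Cpr60D in 2 LamC RNAi libraries, too few to compare groups.

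**Figure D3:**
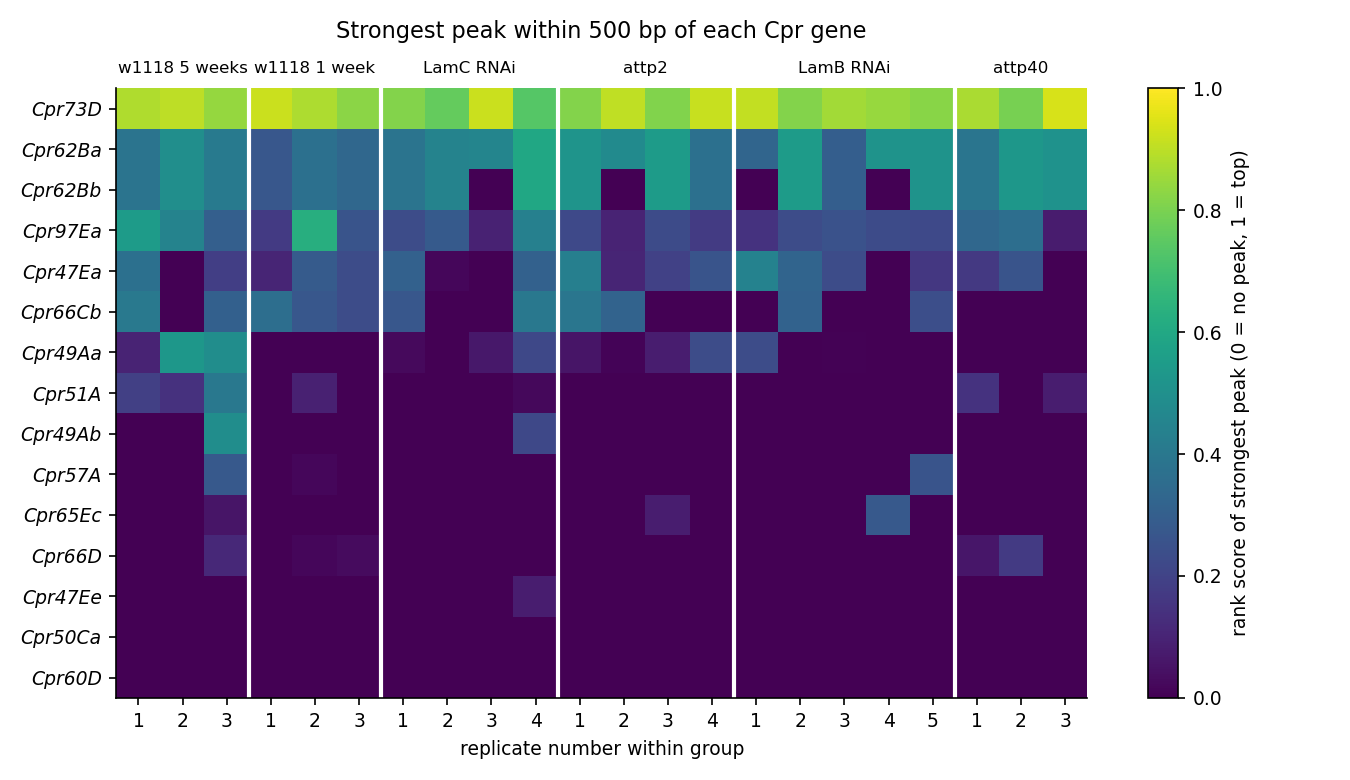
Rank score (colour, 0 for no peak among the 8491 strongest to 1 for the strongest peak) of the strongest peak within 500 bp of each of the 15 open Cpr genes (rows) in the 22 libraries (columns, by group and replicate number). Cpr73D is bright in every column (0.735 to 0.938), and Cpr49Aa and Cpr51A have their highest scores in w1118 at 5 weeks. Cpr51A and each row below it are at 0 in most columns.

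Much of the open DNA at Cpr genes lay beside an unrelated gene. Of the 28 Cpr genes with another protein-coding gene within 500 bp, 9 (32.1%) were open in at least 1 library, and of the 42 without one, 6 (14.3%). For 8 of the 15 open genes every deposited peak also lay within 500 bp of another gene. The matching share among all open protein-coding genes is not given, so the count is not read as particular to Cpr genes. That held for all 49 peaks at Cpr73D, whose neighbours include Ogdh, the gene of a tricarboxylic acid cycle dehydrogenase, and Obp73a, an odorant-binding protein gene that overlaps Cpr73D. Those at Cpr97Ea, 22 in number, were near CG14257, the 19 at Cpr47Ea near Or47a, an odorant receptor gene, and the 11 at Cpr66Cb near Pex2, a peroxisome assembly gene. The same held for the 18 peaks at Cpr51A (beside CG30197), and for those at Cpr57A, Cpr60D and Cpr65Ec. Peaks away from every other gene were found at 7 genes. They were the 22 peaks at Cpr62Ba and the 18 of them that also reached Cpr62Bb, all 20 at Cpr49Aa, the 4 at Cpr49Ab, the 3 at Cpr50Ca, the 2 at Cpr47Ee and 12 of 15 at Cpr66D. The merged region at Cpr66D reaches the muscle Z-disc gene Zasp66. Gene spans were used without strand, so which of the neighbours starts at a peak was not determined.

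Most genes of the same protein family with older names were closed too. Of 28 such genes (Lcp, Ccp84, Edg and others), 4 (14.3%) were open in at least 1 library and 2 (7.14%) in all 22, beside the 21.4% and 4.29% of Cpr genes, and the difference was not tested. These 2 were Lcp9 and resilin, the rubber-like protein of joints and tendons. Lcp2 and Lcp3, which are neighbours, were open in 12 libraries each. Among 32 genes of other cuticular protein families 3 were open, none in all 22, namely Vajk2 in 11 libraries, Twdlalpha in 4 and TwdlD in 2. Of 23 genes for chitin synthesis, assembly and turnover 11 were open in at least 1 library and 4 in all 22. The 4 were mmy, which makes the sugar precursor of chitin, the chitinase genes Cht2 and Cht7, and reb, needed for chitin secretion. No library had a peak at kkv or Chs2, the chitin synthases, or at knk, which organizes chitin fibres. In the tanning and pigment list 8 of 11 were open, 4 of them always (stw, the laccase that hardens cuticle, Pu, svr and speck), while ple and e, which make and modify dopamine, and t were at 0. ZP-domain genes of the apical matrix were open in 6 of 10 cases. Regulators of the epidermis and of cuticle timing were open in 18 of 18, with 17 open in all 22 libraries. The chitin, tanning and ZP-domain shares in at least 1 library were 47.8%, 72.7% and 60%. Of all protein-coding genes 67.3% were open in at least 1 library and 47.0% in all 22. The lists were not matched for gene span, and 51.5% of all genes up to 2000 bp and 81.4% of longer ones were open. The open regulators included EcR and usp, the ecdysone receptor, and its early and late targets Eip75B, Eip74EF, Hr3 and ftz-f1.

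Epidermal markers were read beside heart markers. Of 15 epidermis markers 10 (66.7%) were open in at least 1 library and 6 (40%) in all 22. The shares of all protein-coding genes were 67.3% and 47.0%, so these counts are not read as particular to epidermis markers. The 6 were grh, the Grainy head factor of all barrier epithelia, mwh, f and sn, which shape hairs and bristles, stw and tyn. The transcription factor gene ovo was open in 16 libraries, the chitin deacetylase genes verm in 3 and serp in 2, and dyl in 3. No library had a peak at sha, kkv, knk, neo or nyo, which build hairs, chitin and the apical matrix. Of these 15 markers, stw, dyl, neo, nyo, tyn, kkv, knk, serp, verm, grh and ovo also stand in the lists above. Of 15 heart markers 14 were open, 12 of them in all libraries, among them Hand, pnr, Mef2, mid, H15, svp and the muscle genes Mhc, sls, Mlc2, Tm2 and up. The heart factor gene tin had no peak within 500 bp in any library, and Doc1 and Doc2 were open in 12 and 11. Genes at 0 thus stood in both lists, 5 in the first and 1 in the second. Of the 5 tracheal markers trh and bnl were open in all 22 libraries and btl in 7, with Gasp and dysf at 0.

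Between 4 and 13 Cpr genes were open in a library (mean 8.27 ± 2.31, SD, n = 22). The highest and the lowest were both LamC RNAi libraries, 13 in replicate 4 with 11148 peaks and 4 in replicate 3 with 8736 peaks, and these files carry the same date, whose meaning is not given. At 5 weeks w1118 libraries had 10, 8 and 12 open Cpr genes, against 9, 10 and 10 at 1 week. LamC RNAi libraries had 9, 8, 4 and 13, against 8, 8, 10 and 7 in attp2. LamB RNAi libraries had 5, 9, 7, 6 and 11, against 7, 6 and 5 in attp40. Ranges overlapped in all 3 comparisons. With all lists reduced to 8491 peaks the counts ran from 4 to 12 (mean 6.73).

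**Figure D4:**
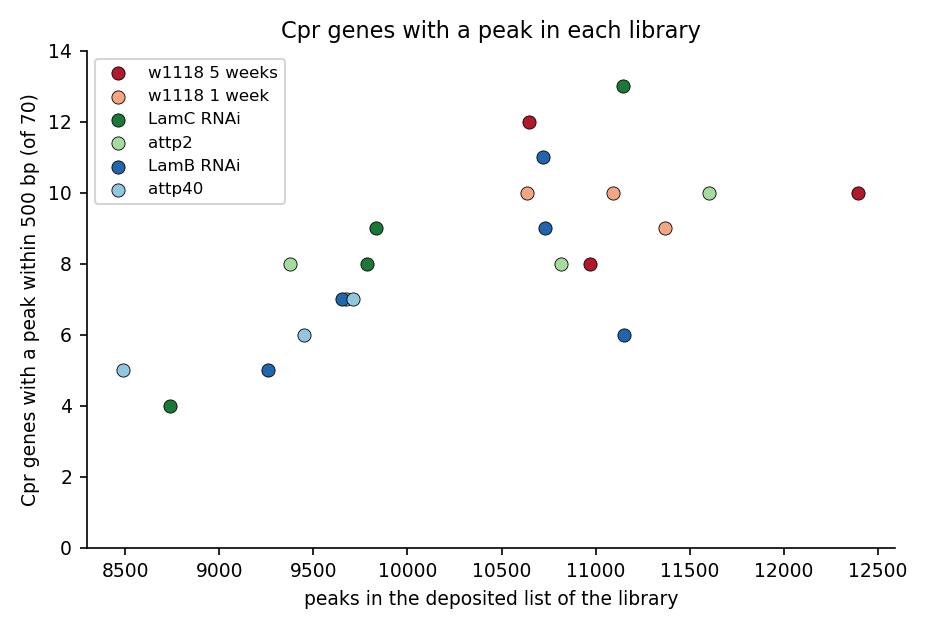
Number of the 70 Cpr genes open in each library (vertical axis) against the number of peaks in its deposited list (horizontal axis, which does not start at 0), 1 point per library, coloured by group. Counts run from 4 to 13, and the 3 shortest lists have 4 or 5 open Cpr genes.

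For the tests, peaks of the reduced lists were merged into regions, of which the 9850 found in 3 or more libraries were kept. Of these, 11 lie within 500 bp of a Cpr gene. They cover 12 Cpr genes, and the other 58 have no tested region. Regions are named below for the Cpr gene near them. A region is scored as a whole, so its score can come from a peak more than 500 bp from that gene. That was so in some libraries at Cpr57A, Cpr65Ec and Cpr66D. All but 2 of the 11 regions also lie within 500 bp of another gene, and the matching share of all regions is not given. The exceptions are the region at Cpr49Aa and Cpr49Ab (2R, 12376863 to 12378161) and that at Cpr62Ba and Cpr62Bb (3L, 1831661 to 1832348). Cpr73D has 2 regions, an inner one (3L, 16955321 to 16956733) and one across its high end (3L, 16957016 to 16958359).

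With age, 2 of the 11 Cpr regions rose and none fell. They are the region at Cpr49Aa and Cpr49Ab and a region inside Cpr51A (2R, 14513295 to 14514259), which also lies within 500 bp of CG30197. Both held a weak peak or none in the reduced lists of young w1118 hearts and a peak of low to middle rank in all 3 old ones. Of all 9850 regions 1.32% were called in this comparison, 0.609% higher and 0.711% lower at 5 weeks (limma, Benjamini-Hochberg adjusted p under 0.05). The same 2 Cpr regions were the only ones of the 11 with an unadjusted p under 0.05, a level that 11.6% of all regions passed.

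At Cpr49Aa and Cpr49Ab the rank scores at 5 weeks were 0.100, 0.529 and 0.491, against 0 in all 3 libraries at 1 week. The old and young libraries did not overlap, and replicate 1 was well below the other old libraries. The difference was 0.373 ± 0.0859 (limma SE), with an adjusted p of 0.0271. This SE pools the spread of all groups, whose SD ran from 0 in attp40 and w1118 at 1 week to 0.237 in w1118 at 5 weeks. In the full lists the strongest peak there ranked 7643 of 12395, 4002 of 10972 and 4321 of 10646 at 5 weeks. The young libraries had peaks there too, ranked 10764 of 11370, 10102 of 10637 and 9509 of 11095, all below the 8491 strongest. The strongest peak was 379, 830 and 1109 bp wide at 5 weeks, against 211, 272 and 236 bp at 1 week, and together all peaks of the region cover 516 bp of the high end of Cpr49Aa. Only in old replicates 1 and 3 among the w1118 libraries did a peak come within 500 bp of Cpr49Ab. The region was called with all deposited peaks ranked (adjusted p = 0.00266) but not without 5-week replicate 2 (difference 0.296, adjusted p = 0.142) or 3 (0.314, adjusted p = 0.171). With the difference at 0.373 as before, it was also not called without 1-week replicate 1 (adjusted p = 0.0846), 2 (0.0762) or 3 (0.0945), nor in a fit of the w1118 libraries alone (0.389).

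In Cpr51A the scores were 0.188, 0.144 and 0.401 at 5 weeks, against 0, 0.0912 and 0 at 1 week. The lowest old library was above the highest young one. The difference was 0.214 ± 0.0473 (limma SE), with an adjusted p of 0.0216. This SE pools the spread of all groups, whose SD ran from 0 in attp2 and LamB RNAi, with every library at 0, to 0.137 in w1118 at 5 weeks. Peaks were listed in all 6 of these libraries before reduction, and those of young replicates 1 and 3 ranked 10575 of 11370 and 8776 of 11095. The call was lost without 5-week replicate 3 (difference 0.135, adjusted p = 0.102), without 1-week replicate 1 (adjusted p = 0.0920) or 3 (0.106), both with a difference of 0.199, with all deposited peaks ranked (difference 0.250, adjusted p = 0.112) and in the w1118 libraries alone (difference 0.214, adjusted p = 0.428).

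The other 4 groups, all at 1 week, had mean scores under 0.1 at both places. At Cpr49Aa and Cpr49Ab, mean scores were 0.0767 ± 0.0976 after LamC RNAi and 0.0946 ± 0.0968 in attp2 (SD, n = 4 each), with 0.218 in LamC RNAi replicate 4 and 0.233 in attp2 replicate 4, both above the lowest 5-week library. The mean was 0.0474 ± 0.104 after LamB RNAi (n = 5), where replicate 1 reached 0.233, and all 3 attp40 libraries were at 0. In Cpr51A the attp40 libraries scored 0.145, 0 and 0.0810, so the highest of them was just above the lowest 5-week library, while all attp2 and LamB RNAi libraries were at 0 and LamC RNAi libraries reached 0.0207. Thus all attp40 libraries were at 0 at Cpr49Aa, as were the young w1118 libraries, and all 4 attp2 libraries were above 0.

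**Figure D5:**
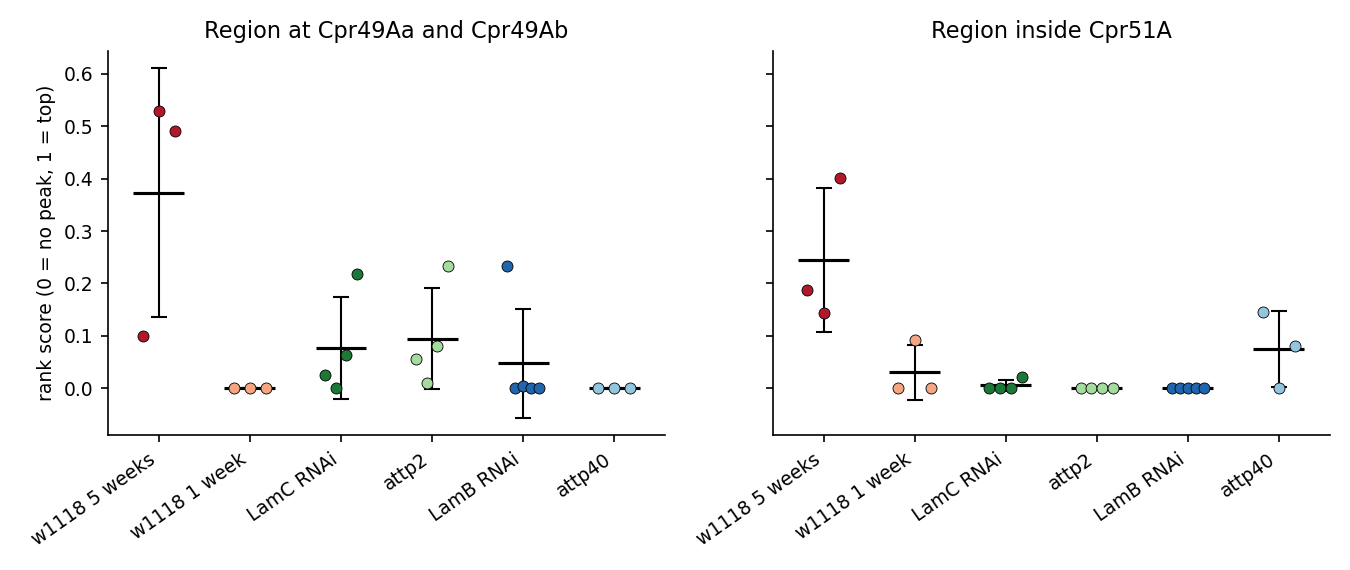
Rank score (vertical axis, 0 for no peak among the 8491 strongest, 1 for the strongest) of the region at Cpr49Aa and Cpr49Ab (left) and the region inside Cpr51A (right) in each library (points), with the group mean (bar) and SD (whiskers). In w1118 at 5 weeks the points lie between 0.100 and 0.529 on the left and between 0.144 and 0.401 on the right, above the w1118 points at 1 week.

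The other 9 Cpr regions did not pass the threshold with age. Mean scores of the Cpr73D end region were 0.874 ± 0.0291 at 5 weeks and 0.873 ± 0.0476 at 1 week (SD, n = 3 each), and of its inner region 0.726 ± 0.0180 and 0.717 ± 0.0846. The region at Cpr62Ba and Cpr62Bb had 0.383, 0.495 and 0.410 at 5 weeks, against 0.273, 0.370 and 0.334 at 1 week. These groups did not overlap, but the difference of 0.104 ± 0.0820 (limma SE) had an adjusted p of 0.741. Cpr97Ea scored 0.432 ± 0.123 at 5 weeks and 0.352 ± 0.241 at 1 week (n = 3 each), and Cpr47Ea 0.185 ± 0.185 and 0.208 ± 0.0946. Means of Cpr66Cb were 0.237 at 5 weeks and 0.288 at 1 week, and those of Cpr57A, Cpr66D and Cpr65Ec were all under 0.1. The median difference over the 11 regions was 0.0232, and over all regions it was 0.

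Levels of marker lists were computed for the same libraries, as the mean score of each gene's strongest peak. For the 15 epidermis markers it was 0.227 to 0.245 at 5 weeks, against 0.223 to 0.249 at 1 week, and none of their 13 regions was called. Of the 15, sha, kkv, knk, neo, nyo, serp, verm and dyl, 8 in all, were at 0 in every w1118 library. Single markers differed in direction, with mean scores at 5 weeks and 1 week of 0.677 and 0.523 for f, 0.424 and 0.271 for mwh, and 0.702 and 0.824 for stw, none of them called. For the 15 heart markers it was 0.414 to 0.547 at 5 weeks, against 0.565 to 0.597 at 1 week, and 1 of 39 regions was called, lower at 5 weeks, in mid. The 5 fat body markers had 0.333 to 0.370 at 5 weeks, against 0.218 to 0.303 at 1 week. For the 5 pericardial nephrocyte markers it was 0.310 to 0.342 against 0.421 to 0.546, with 1 of 14 regions called lower, in Klf15. The 5 hemocyte markers had 0.461 to 0.492 at 5 weeks, against 0.509 to 0.538 at 1 week. Tracheal markers had 0.358 to 0.383 at 5 weeks, against 0.385 to 0.389 at 1 week. Oenocyte markers had 0.473 to 0.640 against 0.435 to 0.482, with 1 of 17 regions called higher, in FASN3. That region had a mean of 0.201 ± 0.0969 at 5 weeks and of 0 at 1 week. Its limma adjusted p of 0.04995 was just under the threshold. The tendon marker sr scored 0.763 to 0.944 at 5 weeks and 0.895 to 0.971 at 1 week. The heart, fat body, nephrocyte, hemocyte and tracheal ranges thus did not overlap between the ages, and their part in the results at Cpr49Aa and Cpr51A was not tested. Among the cuticle lists the age comparison called 1 region, of the 10 in the ZP-domain list. It lies in the gene m, at 0.329 ± 0.0984 at 5 weeks and 0.662 ± 0.0672 at 1 week (limma adjusted p = 0.00185). None was called of the 128 regions of regulators, the 12 of tanning and pigment genes or the 7 of chitin genes. Of all 9850 regions 1.32% were called with age, so single calls in these lists are not read as results about the lists.

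After LamC RNAi none of the 11 Cpr regions changed by limma. None had an unadjusted p under 0.05 either, and the lowest adjusted p was 0.883. Of all regions 0.152% were called in this comparison, and 6.59% had an unadjusted p under 0.05, so with 11 regions a count of 0 is near the background. The largest negative t belonged to the Cpr73D end region, at 0.807 ± 0.0814 after LamC RNAi and 0.861 ± 0.0573 in attp2 (SD, n = 4 each). Its 4 LamC RNAi libraries scored 0.813, 0.762, 0.919 and 0.735, against 0.815, 0.904, 0.809 and 0.917 in attp2. The largest positive one belonged to Cpr97Ea, at 0.233, 0.282, 0.0947 and 0.437 after LamC RNAi, against 0.222, 0.100, 0.229 and 0.174 in attp2. In both cases the groups overlapped. Cpr47Ea averaged 0.160 ± 0.174 after LamC RNAi and 0.247 ± 0.138 in attp2. The region at Cpr62Ba and Cpr62Bb averaged 0.470 ± 0.0901 after LamC RNAi and 0.478 ± 0.0769 in attp2, and Cpr66Cb 0.167 ± 0.200 and 0.178 ± 0.208. Differences over the 11 regions ran from −0.0870 to 0.0805, with a median of −0.0109, against a median of 0.00166 over all regions.

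After LamB RNAi none of the 11 Cpr regions changed by limma either, none had an unadjusted p under 0.05 and the lowest adjusted p was 0.870. The background was 0.183% of regions called and 6.40% with an unadjusted p under 0.05. The largest negative t was that of Cpr51A, at 0 in all 5 LamB RNAi libraries, against 0.145, 0 and 0.0810 in attp40. The region at Cpr66D followed, with 0.0754 in LamB RNAi replicate 1 and 0 in the other 4, against 0.0622, 0.171 and 0 in attp40. That LamB RNAi score came from a peak more than 500 bp from Cpr66D. The largest positive t was that of Cpr66Cb, which scored 0, 0.315, 0, 0 and 0.242 after LamB RNAi, against 0 in all 3 attp40 libraries. Cpr65Ec and Cpr47Ea came next, at means of 0.0559 ± 0.125 and 0.231 ± 0.166 after LamB RNAi (n = 5), against 0.0134 ± 0.0233 and 0.142 ± 0.132 in attp40 (n = 3). The attp40 value at Cpr65Ec also came from a peak more than 500 bp from that gene. Among the cuticle lists 1 region was called, of the 12 in the tanning and pigment list. It lies at y, the yellow gene of dark pigment. Its score was 0.0622 ± 0.0853 after LamB RNAi and 0.445 ± 0.109 in attp40 (limma adjusted p = 0.0236). Of the heart markers' 39 regions 1 was called, the same mid region as with age, and lower after LamB RNAi. It was at 0.677 ± 0.0774 after LamB RNAi (n = 5) and 0.866 ± 0.0261 in attp40 (n = 3, limma adjusted p = 0.0254). The attp40 replicate 3 file carries a date months before the rest of this comparison, and without it the count of Cpr regions called was still 0.

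Cpr49Aa had a presence pattern in the LamB comparison that the scores do not carry. In the deposited lists it had a peak in all 5 LamB RNAi libraries and in none of the 3 attp40 libraries, as did 0.0867% of all protein-coding genes. The 5 peaks were weak, ranked 6514 of 9259, 10131 of 10732, 8456 of 9655, 9597 of 11150 and 8958 of 10723, and the LamB RNAi lists held 9259 to 11150 peaks, against 8491 to 9711 in attp40. In lists of equal length Cpr49Aa was open in LamB RNAi replicates 1 and 3 and in no attp40 library, and the difference in score was 0.0474 ± 0.0768 (limma SE), with an adjusted p of 1. With all deposited peaks ranked it was 0.156 (limma adjusted p = 0.657). In the age comparison Cpr49Aa was the member with a peak in all old and no young library of the reduced lists, a pattern found in 0.246% of all genes, but in the deposited lists it was open in all 6 w1118 libraries.

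Whether the changes with age differ from those after RNAi was tested as a difference of differences, a test added after the data were seen. At Cpr49Aa and Cpr49Ab the change with age exceeded that after LamC RNAi by 0.391 ± 0.114 (limma SE, adjusted p = 0.196) and that after LamB RNAi by 0.326 ± 0.115 (adjusted p = 0.517). In Cpr51A the excess was 0.209 ± 0.0625 over LamC RNAi (adjusted p = 0.207) and 0.289 ± 0.0634 over LamB RNAi (adjusted p = 0.0603). None of the 4 passed the threshold, so the rises at these genes are not shown to be limited to age.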

How the data were processed

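Hearts were profiled by bulk ATAC-seq in 22 libraries and 6 groups, taken from the sample titles. The submitters' processing notes name the genome build dm6 and the tools Bowtie2, SAMtools, Picard and MACS2. Tool versions, settings and a transposase offset were not given in the sources used here. For each library the authors deposited 1 peak list, in which a peak has a fold enrichment (a ratio to local background) and, as −log10, its p-value and its q-value within that library. No reads were used, and depth is unknown.

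Lists were reduced to the 8491 strongest peaks by −log10 p and merged (minimum overlap 1 bp). The 9850 regions with a peak in at least 3 libraries were scored as 1 − (rank − 1)/8491 and tested with limma 3.58.1 (R 4.3.3, trend) in 1 fit of all 22 libraries, Benjamini-Hochberg adjusted over all regions within each of 3 comparisons, at a threshold of 0.05. The spread is 1 estimate over all 6 groups. Simulated scores with known shifts were used to test the fit, and the outcome is not given here. Only regions of middle mean score were shifted. The Cpr regions called with age have lower means (0.0928 and 0.0486), so that test does not cover them. Gene spans come from the RefSeq annotation of Release 6, the assembly behind dm6, without strand, exons or sequence, so no sequence is printed. Of the marker and gene lists only rtl was not found in that table. Python 3.11.15, numpy 2.4.6 and pandas 2.3.3 were used. The members and lists were chosen with earlier results of these data known. Regions named are those called, the 6 highest and 6 lowest by limma t in each comparison, the 10 genes highest by mean score, genes open in all of one group and none of the other, and clusters of at least 4. Alternatives were ranking by fold enrichment, list length, region filter, window, fit, block, weights and leaving out each library.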

Additional observations from a re-analysis of the deposited data

Results flagged for a closer look

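In groups of 4 or 5 libraries, 36 sets of unequal values were examined, from region scores and from numbers of open Cpr genes per library. In 8 of them, all region scores, 1 library was far from the others. Chance gives about 1 in 20 for normally distributed values, a rate that cannot be set against scores with a floor at 0. In 6 of the 8 the other libraries of the group were all at 0, so 1 peak among the 8491 strongest was enough, and in the other 2 they were close to 0. At Cpr49Aa and Cpr49Ab, LamB RNAi replicate 1 scored 0.233 and the other 4 at most 0.00424. In Cpr51A, LamC RNAi replicate 4 scored 0.0207 and the other 3 at most 0.000118. The region near Cpr57A scored 0.0503 in LamC RNAi replicate 4 and 0.177 in attp2 replicate 4, with 0 in the other libraries of both groups. Neither peak came within 500 bp of Cpr57A itself. Cpr65Ec scored 0.279 in LamB RNAi replicate 4 and 0 in the other 4. The region near Cpr66D scored 0.0995 in LamC RNAi replicate 3, 0.0463 in attp2 replicate 1 and 0.0754 in LamB RNAi replicate 1. The other libraries of each group were at 0. No peak that gave those scores above 0 came within 500 bp of Cpr66D itself.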

How the results depend on the processing

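The count of 2 Cpr regions called with age was 0 with the w1118 libraries alone, with the replicate block and with 1 score per gene, 1 with all deposited peaks or with ranking by fold enrichment, and 0 to 2 when each library was left out in turn. Lists of 4245 peaks also gave 0, but they kept 3 Cpr regions, at Cpr62Ba and Cpr73D, so the 2 called regions were not tested there. No Cpr region was called for LamC or LamB RNAi under any alternative. A window of 1000 bp gave 34.3% of Cpr genes open in at least 1 library, 5 genes open in all 22 and 15.5 per library, and a window of 0 bp gave 14.3%, 1 and 4.73, against 21.4%, 3 and 8.27.

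Of 482 differences of single regions under the alternatives, 414 kept their sign and side of the threshold, 4 came to 0 (within 1e-09) with neither value past the threshold, 16, all of Cpr49Aa and Cpr51A with age, kept their sign and lost the call, and 48 changed sign with neither value past the threshold. For Cpr57A the age difference was −0.0677 with all deposited peaks and −0.0303 with ranking by fold enrichment. For LamC they were −0.00780, −0.00339 and −0.0541 at the inner Cpr73D region (all deposited peaks, fold enrichment, and 1 score per gene, which there is that of the end region), 0.00611 at Cpr66Cb (library weights) and 0.0166 at Cpr62Ba (lists of 4245 peaks). For LamB they were, with all deposited peaks, 0.0141 at Cpr62Ba, 0.0282 at inner Cpr73D and 0.0436 at Cpr97Ea, with ranking by fold enrichment 0.0376 at inner and 0.00401 at end Cpr73D, 0.00562 at Cpr62Ba (lists of 4245 peaks) and −0.0134 at Cpr65Ec (replicate block). The cause was not tested.

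Leaving out each library gave both signs, never past the threshold, with age for Cpr47Ea (−0.115 to 0.0700), Cpr57A (−0.0315 to 0.108), Cpr66Cb (−0.134 to 0.0676), Cpr66D (−0.0153 to 0.0424), inner Cpr73D (−0.0396 to 0.0349), end Cpr73D (−0.0236 to 0.0240) and Cpr97Ea (−0.0100 to 0.218). For LamC they were Cpr49Aa (−0.0649 to 0.0283), Cpr57A (−0.0463 to 0.0126), Cpr62Ba (−0.0499 to 0.0212), Cpr66Cb (−0.0880 to 0.0605), Cpr66D (−0.0116 to 0.0249) and inner Cpr73D (−0.0123 to 0.0330). For LamB they were Cpr57A (−0.0252 to 0.0623), Cpr62Ba (−0.0779 to 0.000186), Cpr65Ec (−0.0134 to 0.0564), inner Cpr73D (−0.0298 to 0.0242), end Cpr73D (−0.0566 to 0.0146) and Cpr97Ea (−0.130 to 0.0117).

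Whether replicate numbers pair the libraries cannot be decided with so few libraries. Correlations of same-numbered deviations ran from 0.0237 to 0.147 for age, −0.274 to 0.0385 for LamC and 0.0841 to 0.213 for LamB. Of the libraries with shared numbers, 4 of 6 for age, 2 of 8 for LamC and 4 of 6 for LamB correlated best with their own number. The replicate block left 0, 1 and 0 of the 9850 regions called, against 20, 4 and 7 in fits of the 2 groups without it, which for LamB hold all 8 libraries and not only the 6 with shared numbers. Depth is unknown, so a closed gene means no peak at these depths, not closed chromatin.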
